A study of Mus musculus with 686 samples.

Results

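Brain is 1 of 13 mouse tissues in which small non-coding RNA was sequenced from ground controls of a spaceflight mission. The libraries described here were selected by their labels as ground samples of the Live Animal Return (LAR) protocol, which gave 8 brain libraries among 234 libraries of 13 tissues, out of 686 libraries in the whole series. All mice were female BALB/cAnNTac mice without a genetic modification in the labels, and none of them flew. The Habitat Ground Control (HGC) mice lived in the same habitats and transporters as the flight mice, at double density and with matched temperature, humidity and carbon dioxide. The Vivarium Ground Control (VGC) mice were kept in standard cages. All of them were anesthetized, with gas according to the labels and with ketamine and xylazine according to the study's methods, and bled by cardiac puncture before the tissues were taken on Earth and frozen. Brain means a whole hemi-brain in the study's methods. Brain came from 4 HGC mice and 4 VGC mice, all labelled 3 months old, whereas the other 12 tissues held 15 to 20 libraries each from mice of 3 and 8 months. The other tissues were gonadal, mesenteric, subcutaneous and brown adipose tissue (GAT, MAT, SCAT and BAT), diaphragm, heart, kidney, liver, lung, pancreas, spleen and thymus. The comparison asks which small RNAs set brain apart from the rest of the body, without any effect of flight.

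MicroRNAs (miRNAs) are short RNAs that guide Argonaute proteins to messenger RNAs, mainly through the seed near the 5′ end, and neurons hold a characteristic set of them headed by miR-124 and miR-9. Small nucleolar RNAs (snoRNAs) guide the chemical modification of ribosomal and spliceosomal RNA, and those of the C/D type carry a C box near the 5′ end and a D box near the 3′ end. The Snord115 and Snord116 genes lie in long tandem arrays between Snrpn and Ube3a on mouse chromosome 7, are transcribed from the paternal chromosome in neurons, and correspond to the human region that is lost in Prader-Willi syndrome. The imprinted Dlk1-Dio3 region on chromosome 12 holds the maternally expressed lncRNAs Meg3, Rian and Mirg, whose introns carry many C/D snoRNAs and miRNAs. Because total tissue was sequenced, a smaller number of cells of a type and less RNA per cell cannot be told apart.

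The snoRNAs that carried most of the brain counts are shown first, as the highest and the lowest feature of each array on chromosome 7 and the highest feature of the Rian to Mirg region. Sequences are those of the same transcript versions in GENCODE vM21, positions refer to GRCm38, and capitals mark a C box (TGATGA) and a D box (CTGA) found by a search of the first 15 and last 12 bases. Gm25098 and Gm22348 lie in the Snord115 array at chr7:59492432-59492510 and chr7:59405330-59405408, Snord116l13 and Gm23141 in the Snord116 array at chr7:59874380-59874473 and chr7:59705968-59706061, all on the minus strand. AF357428 lies at chr12:109679945-109680013 on the plus strand.
Gm25098: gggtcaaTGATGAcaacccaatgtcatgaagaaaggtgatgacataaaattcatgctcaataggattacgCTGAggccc
Gm22348: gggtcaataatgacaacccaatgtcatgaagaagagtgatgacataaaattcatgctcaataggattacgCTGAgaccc
Snord116l13: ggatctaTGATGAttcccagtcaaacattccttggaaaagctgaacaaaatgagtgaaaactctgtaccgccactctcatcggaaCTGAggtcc
Gm23141: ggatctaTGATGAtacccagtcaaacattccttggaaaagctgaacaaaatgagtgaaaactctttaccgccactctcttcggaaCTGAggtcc
AF357428: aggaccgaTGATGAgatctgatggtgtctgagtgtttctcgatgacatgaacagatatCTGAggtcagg
Gm25098 had 114224 to 1040119 counts in the 8 brain libraries, and its exact sequence belonged to 33 of the 134 features of the array. Gm22348 differs from it by 4 edits, lacks the TGATGA, and had 126 to 697 counts. Snord116l13 had 6500 to 63154 counts and shared its sequence with 30 of 70 features, while Gm23141, at 3 edits, had 40 to 253. AF357428 had 35599 to 141390 counts. Its sequence was not found for another feature with a known sequence, but it belongs to a group of 2 features when copies are counted once (below).

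The mature miRNAs below are those on which the brain results turn and which the RefSeq table (GRCm38.p6) holds, with the seed (bases 2 to 8) in capitals.
miR-9-5p: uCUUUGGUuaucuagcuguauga
miR-9-3p: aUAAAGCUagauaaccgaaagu
miR-128-3p: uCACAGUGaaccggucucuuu
miR-132-3p: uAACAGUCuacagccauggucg
miR-212-3p: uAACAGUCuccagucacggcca
miR-127-3p: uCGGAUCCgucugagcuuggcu
miR-433-3p: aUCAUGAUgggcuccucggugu
miR-770-5p: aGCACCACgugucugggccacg
miR-3099-3p: uAGGCUAGagagagguugggga
miR-1224-5p: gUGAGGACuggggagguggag
miR-204-5p: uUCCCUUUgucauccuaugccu
miR-7a-5p: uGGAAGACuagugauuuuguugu
miR-153-3p: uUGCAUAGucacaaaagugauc
miR-129-5p: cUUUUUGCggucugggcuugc
miR-137-3p: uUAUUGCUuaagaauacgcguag
miR-132-3p and miR-212-3p share the seed AACAGUC. Of the 225 miRNAs called higher in brain (described below), 205 have a sequence in the table, and they hold 198 different seeds. Only 7 seeds were shared, by 14 miRNAs in all, such as AUAUAAC in miR-344d-3p and miR-410-3p.

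The counts of a library, summed over 7 RNA classes, ranged from 16.6 to 173 M (mega) with a median of 48.0 M, and from 26.0 to 84.1 M in brain. Counts on miRNAs ranged from 0.431 to 16.2 M, and from 3.41 to 10.0 M in brain, where HGC mouse 1 had the lowest value of both. The study's sample list places the libraries of the series in 44 pools, and 11 of these, with 50 of the 234 libraries, held many libraries whose miRNA profile went against the label. Shares and counts of calls are therefore given also for the 184 libraries outside them, 7 of brain, and so are fold changes of named features that moved by more than 1.5-fold. The brain label was checked with miR-124-3p, whose level in the 8 brain libraries was 52150 to 257700 per M miRNA counts. Among the other 226 libraries, 15 reached 1000 per M, of which 6 lay outside the 11 pools. The library labelled BAT of HGC mouse 12 had 44640 and the library labelled heart of VGC mouse 13 had 34280, both within the 11 pools. Brain of VGC mouse 5, the only brain library in those pools, had the lowest miR-124-3p level of the 8 and stood apart in many values below.

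snoRNAs made up a larger share of the brain libraries than of any other tissue. In brain the snoRNA counts were 49.0% ± 16.1 (SD, n = 8) of the counts over 7 classes, with 18.97% as the lowest, 50.1% as the median and 70.1% as the highest value. Brain of VGC mouse 5 held the lowest value, and the next was 34.8% in HGC mouse 1. Spleen came closest with 33.7% ± 10.6 (n = 15), followed by thymus with 26.2% ± 7.32 (n = 20), and GAT was at the other end with 5.94% ± 5.14 (n = 20). Brain exceeded each of the 12 tissues in exact two-sided permutation tests of the mean (adjusted p from 8.108e-06 to 0.0203 over 84 tests, the largest for spleen). Single libraries of 11 tissues, all but SCAT, reached the level of the lowest brain library, and the highest spleen library held 45.2%. Without the 11 pools brain held 53.3% ± 11.5 (n = 7) and again exceeded all 12 tissues. Without HGC mouse 13 or without VGC mouse 17, the difference to 1 tissue was lost and 11 remained. Within mice, where 6 brain libraries had a partner from the same animal in each tissue, brain was higher in 6 of 6 pairs in 8 tissues (exact sign-flip test, p = 0.0312, the smallest 6 pairs can give, adjusted p = 0.0469). It was higher in 5 of 6 pairs in kidney, lung, spleen and thymus (exact sign-flip test, adjusted p 0.075 for kidney and lung and 0.0938 for spleen and thymus).

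**Figure D1:**
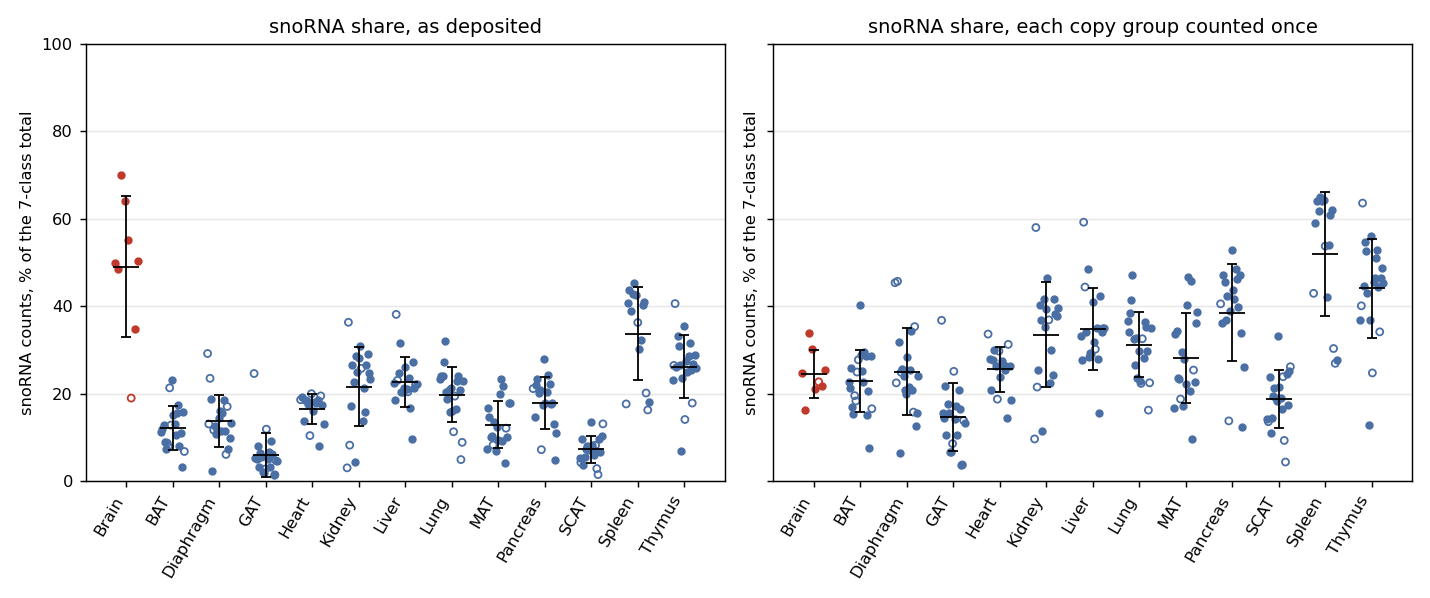
Share of snoRNA counts in the counts over 7 classes (y axis, percent) for each library of 13 tissues, as deposited (left) and with each group of near-identical features counted once (right), with brain in red, other tissues in blue, hollow points for libraries of the 11 pools, and bars for the mean ± SD. Brain has the highest mean as deposited (49.0%) and lies among the other tissues when copies are counted once (24.5%).

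This share depends on how repeated genes are counted. In the deposited table, features with the same sequence carried the same count in every brain library, in 17 of 17 repeated sequences of the Snord115 array and 7 of 7 of the Snord116 array. The sum over the Snord115 array was 47.1 to 52.2 times the count of its highest feature, and over the Snord116 array 56.2 to 57.5 times. When each group of features with at least 85% identity, the same symbol or equal counts was counted once in all classes, by its highest member, brain held 24.5% ± 5.50 snoRNA counts (n = 8), with 16.3% as the lowest, 23.7% as the median and 33.8% as the highest value. On that counting, which was chosen after the data were seen, brain exceeded 1 tissue, GAT at 14.6% (adjusted p = 0.00706, exact permutation test). It lay below 4 tissues, namely spleen at 51.9%, thymus at 44.1%, pancreas at 38.5% and liver at 34.8% (exact permutation tests, adjusted p from 0.000414 to 0.0148). Within mice none of these 5 differences passed (exact sign-flip test of 6 pairs, adjusted p 0.125 for GAT, pancreas and thymus, 0.161 for spleen and 0.281 for liver), with brain higher in 6 of 6 pairs for GAT, in 0 of 6 for pancreas and thymus, in 1 for spleen and in 2 for liver. The mean share of brain was thus the highest of 13 tissues as deposited and lay within the range of the other means with copies counted once.

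The other 6 classes each passed the test against some tissues, and none of them against all 12. miRNAs took 11.0% ± 3.04 of brain counts (n = 8), higher than in 4 tissues (GAT, SCAT, MAT and pancreas, 2.71 to 4.13%) and lower than in heart at 15.8% and lung at 15.8% (adjusted p = 0.0239 and 0.0434, exact permutation tests). lncRNAs took 12.9% ± 3.14, higher than in 7 tissues and lower than in none. The lncRNA counts include transcripts such as Mir124a-1hg, whose count was 100.1 to 100.4% of that of miR-124-3p (below). Counts that lie in both classes were not taken out, also not with copies counted once. rRNAs took 6.28% ± 2.80, lower than in 10 tissues, with pancreas at 49.0%. piRNAs took 1.35% ± 0.459 and were lower than in 10 tissues. tRNAs took 9.75% ± 12.7, lower than in the 4 adipose tissues, where they took 35.0 to 69.7%. This mean rests on brain of VGC mouse 5, whose tRNA share was 40.7% beside 2.20 to 10.2% in the other 7 libraries, and without the 11 pools brain held 5.33% ± 2.61 and was lower than 9 tissues. snRNAs took 9.64% ± 4.23, higher than in GAT and pancreas and lower than in liver, kidney, spleen and thymus. With copies counted once, miRNAs took 32.8% ± 4.8 of the brain counts, higher than in 10 tissues, and lncRNAs 27.4% ± 4.96, higher than in 8.

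On the deposited counting, where every copy carries a count, most brain snoRNA counts lay in 1 array, which with copies counted once held a median of 10.5% of them. The 134 features of the Snord115 array (chr7:59344073-59619095, 78 to 79 nt, 54 different sequences, assigned by position since none carries that name) held 71.7% ± 12.7 of the snoRNA counts of brain (n = 8), with 43.7% as the lowest, 75.5% as the median and 84.5% as the highest value. In the other tissues their mean share was between 0.0644% in SCAT and 2.96% in BAT. The BAT mean contains the library labelled BAT of HGC mouse 12 at 45.4%, and without the 11 pools the highest other tissue was spleen at 0.673% while brain held 75.7% ± 6.27. That spleen mean in turn contains the library labelled spleen of VGC mouse 16 at 7.00%, with 6401 per M miR-124-3p, beside at most 0.164% in the other spleen libraries outside the pools. The 70 features of the neighboring Snord116 array (chr7:59673461-59904848, 92 to 94 nt, 27 different sequences) held 5.89% ± 2.40, with 3.16% as the lowest, 4.88% as the median and 9.45% as the highest value. The highest mean of another tissue was 0.335% in BAT. There the highest library held 4.73%, and the highest outside the 11 pools held 0.111%. The 6 other features of this chromosome 7 region, Snord64 and Snord107 among them, held 0.219% ± 0.129. The 45 features between Rian and Mirg on chromosome 12 (chr12:109631074-109689544, 68 to 82 nt) held 2.05% ± 1.12, beside at most 0.484% in diaphragm. These 4 groups took a larger share in brain than in each of the 12 tissues by exact permutation tests. U3, the snoRNA of early pre-rRNA cleavage, held 2.33% ± 1.52 beside 7.41 to 11.7% in the other tissues, and the remaining 1269 features held 17.8% ± 12.3 beside 86.5 to 91.3%. Both were lower than in each of the 12 tissues by the same test. The 6 shares add up to 1 whole, so a large share of 1 group lowers the others.

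**Figure D2:**
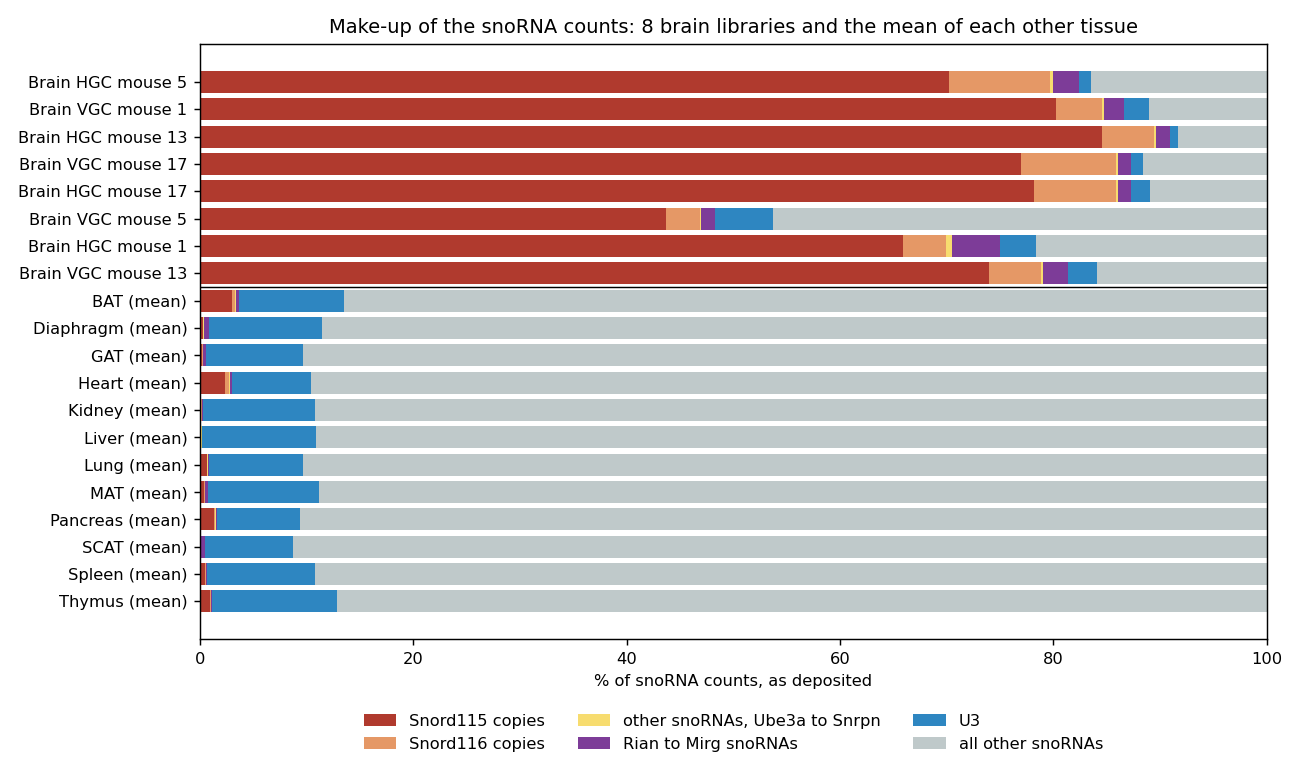
Stacked bars of the share of snoRNA counts (percent, as deposited) held by 6 groups of snoRNAs in each of the 8 brain libraries and as the mean of the 12 other tissues. The Snord115 array fills 43.7 to 84.5% of the brain bars on this counting (median 10.5% with copies counted once), whereas the remaining features fill most of the bars of the other tissues.

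Within the Snord115 array, features further from the most abundant sequence had lower medians but wide ranges. Features at 1 edit from Gm25098 (49 features) had 6.91 to 93.8% of its count with a median of 10.8%, those at 2 or 3 edits (40 features) 0.0832 to 95.5% with a median of 5.64%, and those at 4 or more (12 features) 0.0735 to 6.22% with a median of 1.91%. In the Snord116 array the medians were 88.8% of the highest count at 1 edit (29 features) and 53.0% at 2 or 3 edits (10 features). Whether these levels are those of separate transcripts, or of reads counted at several similar copies, cannot be told apart in the counts. Both boxes were found in 122 of 134 features of the Snord115 array (91.0%), in 66 of 70 of the Snord116 array (94.3%) and in 11 of 23 sequences between Rian and Mirg (47.8%). Over all 1506 snoRNA features with a sequence, 293 (19.5%) held both, so this search for exact letters finds only part of the C/D type, and none of 19 U3 features held both. Relative to miRNA counts, which do not contain the array, Gm25098 or its equals had 18070 as the lowest, 60400 as the median and 197800 as the highest value per M in brain, beside a median of 496 in pancreas.

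Every feature was then compared across tissues on the scale of counts per M of its own class. A feature was called higher in brain when the largest of 12 one-sided edgeR quasi-likelihood p, 1 for each tissue, was under 0.05 after Benjamini-Hochberg adjustment over the class and all 12 log2 fold changes were above 1, and lower in the mirror case. Of 1040 snoRNA features tested, 226 (21.7%) were higher and 399 (38.4%) were lower. Without the 11 pools these were 220 (21.7%) and 398 (39.3%) of 1012. All 134 features of the Snord115 array and all 70 of the Snord116 array were higher, with medians of 7.28 and 7.13 over the features' median log2 fold changes, beside −2.09 over all snoRNA features. For the Snord115 array this median was 8.74 without the 11 pools, 9.43 with TMM factors and 9.68 with DESeq2. Since many of these features share sequences and counts, the calls are not separate measurements. Of the 6 other features of the chromosome 7 region 3 were higher, and of 27 tested between Rian and Mirg 18 were (12 without the 11 pools). Among the remaining 782 features tested 1 was higher and 378 were lower, and all 21 U3 features were lower relative to the snoRNA total, calls that most of the 378 and all of the 21 lost under the other scalings given next.

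The features called higher were also called under 3 other scalings, whereas most of the lower ones were not. Scaled to the snoRNA total, 36.2% of the calls were of higher features, but 84.7% were with TMM factors (244 higher or 23.5%, 44 lower or 4.23%), 98.4% with DESeq2 (241 or 23.2% and 4 or 0.385%) and 99.6% when scaled to the total of 7 classes (242 and 1). The same 226 features were called higher under each of these 3. The median over all snoRNA features moved from −2.09 to −0.98, −0.52 and −0.96. U3 had no call under any of the 3. With copies counted once, 25 of 560 features were higher (4.46%) and none was lower by edgeR, with 20 of the 25 in the imprinted regions of chromosomes 7 and 12. Among them were the Snord115 array as 1 feature, with 19990 as the lowest, 104600 as the median and 176100 as the highest level per M snoRNA counts so counted, and the Snord116 array as 1 feature with 1258, 7082 and 11820. Their smallest log2 fold changes were 6.29 (adjusted p = 5.91e-08) and 5.82. At 10.5% of the snoRNA counts (median), the Snord115 array remained the largest snoRNA of brain on that counting, ahead of Snord90 at 4.36%.

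The 10 snoRNA features that stood furthest above the other tissues all lie in the chromosome 7 region, with BAT as the nearest tissue. The BAT values contain the library labelled BAT of HGC mouse 12, where the Snord115 array held 45.4% of the snoRNA counts. Outside the 11 pools it held at most 0.744% in a BAT library. Gm24495, of the Snord115 array, had 193 as the lowest, 354 as the median and 378 as the highest level per M snoRNA counts, and its smallest log2 fold change was 4.78. Gm24983, which lies among the array but has a sequence unlike it, had 705.9, 1067 and 1367, with a smallest log2 fold change of 4.70. Gm22834 was among the more abundant with 8421, 14590 and 17390. The smallest log2 fold changes of Gm24495, Gm24983 and Gm22834 without the 11 pools were 6.65, 6.86 and 6.92. In the imprinted region of chromosome 12, AF357428 had 5428, 24850 and 53830 per M with copies counted once, and its smallest log2 fold change was 5.25 (adjusted p = 7.33e-25). Snora35, an H/ACA snoRNA in an intron of the serotonin receptor gene Htr2c, had 31.5, 66.0 and 126 per M snoRNA counts and was not called, with a smallest log2 fold change of 0.92 against lung. It was called with TMM factors and with copies counted once, where its smallest log2 fold change was 3.29 (adjusted p = 0.00149). Snord64 and Snord107 were not called relative to the snoRNA total either, but all 6 features of their group were called with TMM factors, scaled to the total of 7 classes and with copies counted once, and 5 of the 6 were called with DESeq2.

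The 5 snoRNAs furthest below the other tissues were Snord15a, Gm22879, Snora31, Gm24134 and Gm23711. Snord15a, a C/D guide for 28S rRNA, had 86.8 as the lowest, 108 as the median and 856 as the highest level per M snoRNA counts, and its largest log2 fold change was −2.61 (adjusted p = 7.76e-16). Snora31, an H/ACA guide, had 12.2, 20.3 and 120 with a largest log2 fold change of −2.58. All 5 were called lower with TMM factors, with values between −1.05 and −1.47, but none was when scaled to the total of 7 classes (−0.49 to 0.02). With copies counted once Gm23711 has no value and none of the other 4 was called (−0.56 to −0.88), and with DESeq2 only Snora31 was, at −1.02.

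Among miRNAs, 225 of 1300 tested (17.3%) were higher in brain than in each of the 12 tissues and 33 (2.54%) were lower. Without the 11 pools these were 230 (18.0%) and 42 (3.29%) of 1277, with TMM factors 240 (18.5%) and 34 (2.62%), and with DESeq2 159 (12.2%) and 64 (4.92%). The number of lower miRNAs depends on the scaling and on 1 library, as it was 0 scaled to the total of 7 classes and 67 without brain of VGC mouse 5. miR-124-3p, which represses non-neuronal transcripts in neurons, had 257700, 154100, 241600 and 179900 per M miRNA counts in brain of HGC mice 1, 5, 13 and 17. In VGC mice 1, 5, 13 and 17 it had 106000, 52150, 170800 and 149200. Its median was 162500 beside 108 in BAT, the tissue with the next highest mean, and no library of another tissue reached the lowest brain library, the closest being the library labelled BAT of HGC mouse 12 at 44640. Its smallest log2 fold change was 5.99 against BAT (adjusted p = 1.29e-05, edgeR), and 7.96 without the 11 pools. The other strand, miR-124-5p, was called at far lower levels, 25.4, 58.8 and 105 per M (lowest, median and highest), with a smallest log2 fold change of 5.82 and of 7.56 without the 11 pools.

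miR-9-5p, a regulator of neural progenitors and of neuron differentiation, had 35150, 47890, 41400 and 42540 per M in HGC mice 1, 5, 13 and 17 and 57740, 28140, 45350 and 46730 in VGC mice 1, 5, 13 and 17. The 8 values lay close together, and kidney, the next tissue, had a median of 1180. The smallest log2 fold change was 5.45 (adjusted p = 9.47e-08, edgeR). miR-9-3p, from the other strand, had 781 as the lowest, 4064 as the median and 5975 as the highest value and a smallest log2 fold change of 5.98. miR-128-3p, which is enriched in neurons, was closer to another tissue, with 916, 2238 and 8751 beside a median of 494 in thymus. Thymus libraries reached 1081, and 2 libraries of other tissues lay at or above the lowest brain library. Its smallest log2 fold change was 2.54 (adjusted p = 6.2e-06, edgeR), but among VGC mice alone it was 1.77 and was not called.

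**Figure D3:**
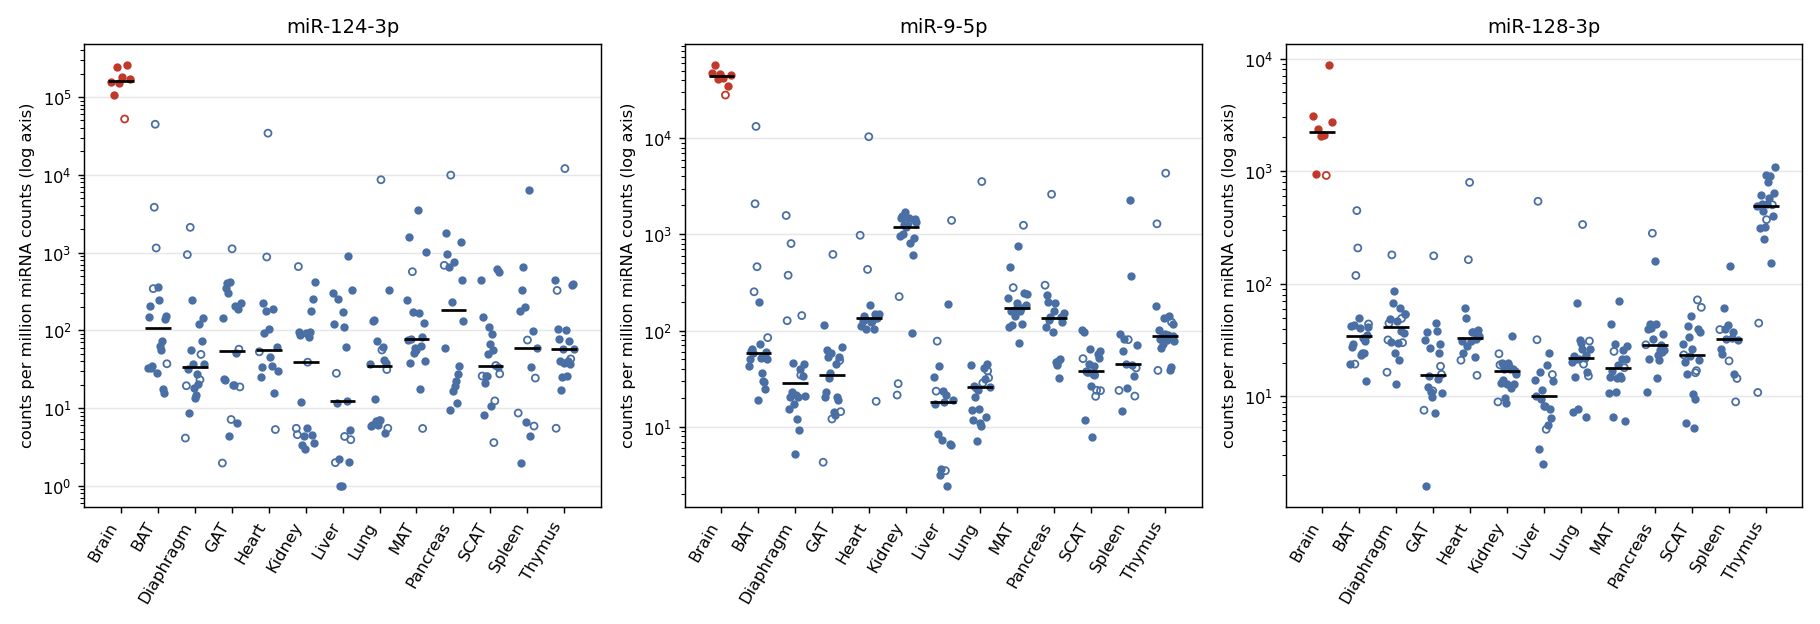
Levels of miR-124-3p, miR-9-5p and miR-128-3p (log axis, counts per M miRNA counts, values under 1 drawn at 1) in each library of 13 tissues, with a line at each median and hollow points for libraries of the 11 pools. Brain medians are 162500, 43950 and 2238, and the gap to the next tissue is smallest for miR-128-3p, where thymus has a median of 494.

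Of 17 strands of neuronal miRNAs listed, all tested, 13 were called higher (14 without the 11 pools), beside 17.3% of all miRNAs tested. The list was chosen with earlier results of these data known and includes miR-124-3p, miR-9-5p and miR-128-3p. The median of the 17 median log2 fold changes was 6.23 (7.57 without the 11 pools) beside 0.26 over all miRNAs. The summed level of the 17 strands was 94730 as the lowest, 252800 as the median and 355300 as the highest value per M, beside a mean of 9127 in pancreas, the next tissue. miR-129-2-3p had 2073, 10650 and 17620 with a smallest log2 fold change of 4.84, and miR-138-5p, an inhibitor of dendritic spine growth, 3210, 8240 and 13910 with 3.72. miR-137-3p, which acts on synaptic genes, had 525, 1475 and 4615 with 3.51, and miR-383-5p had 753, 1917 and 2215 with 4.6 and, without the 11 pools, 6.13. The 4 strands that were not called were miR-153-3p (smallest log2 fold change 1.08, adjusted p = 0.449), miR-218-5p (1.3, adjusted p = 0.102), miR-7a-5p and miR-7b-5p (0.55), of which miR-218-5p was called without the 11 pools. miR-7a-5p is also an endocrine miRNA, and its median of 2535 in brain lay under that of 5784 in pancreas.

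The smaller lists are read against the 17.3% of all tested miRNAs that were called higher. Of the activity-dependent miRNAs, which rise with neuronal firing, 3 of 5 were called (4 without the 11 pools). miR-212-3p had 524 as the lowest, 1102 as the median and 1649 as the highest value per M and a smallest log2 fold change of 4.70, and miR-134-5p, which acts in dendrites, had 106, 222 and 1194 with 2.97. miR-132-3p, with the same seed as miR-212-3p, ranged from 65.8 to 8152 per M in brain and was not called (smallest log2 fold change 2.36, adjusted p = 0.0768), but it was called without the 11 pools at 4.45. Of the miRNAs of myelin-forming cells, miR-219 and miR-338, all 4 tested were called. miR-219a-2-3p had 891, 2806 and 4382 with a smallest log2 fold change of 5.65 (adjusted p = 4.3e-05, edgeR) and of 8.14 without the 11 pools, and miR-338-3p had 758, 1532 and 4984 with 2.58. Of the miRNAs of choroid plexus and pigment epithelium, 2 of 4 were called. These were both strands of miR-204, where miR-204-5p had 7531, 13340 and 30860 beside a median of 1887 in kidney, whereas miR-211-5p had a smallest log2 fold change of −0.59, with spleen higher.

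The imprinted Dlk1-Dio3 region supplied the largest group. Of 40 listed strands, 38 were called (beside 17.3% of all miRNAs tested), with miR-299a-5p and miR-494-3p as the exceptions. The median of the 40 median log2 fold changes was 4.99. The same number, 38, was called without the 11 pools, with a median of 5.6. Their sum was 16980 as the lowest, 52700 as the median and 79110 as the highest value per M, beside a mean of 3651 in MAT. miR-127-3p, which is antisense to the imprinted gene Rtl1, was the most abundant with 6674, 26460 and 45010, beside a median of 1468 in pancreas, and a smallest log2 fold change of 4.18 (adjusted p = 5.51e-17, edgeR). miR-369-5p had 2534, 5833 and 7580 with 4.53, miR-434-3p 251, 1843 and 3693 with 4.95, and miR-541-5p 651, 2018 and 2859 with 2.86. At the end nearest Meg3, miR-770-5p had 62.4, 307 and 530 with 5.54 (6.76 without the 11 pools), and miR-433-3p had 54.7, 250 and 366 with 5.27. miR-412-5p was scarcer at 49.2, 173 and 239 with 5.40. By position in GRCm38, the interval chr12:109563692-109747960 held 100 tested miRNAs, of which 89 were called (89.0%). That is 43.4% of the 205 called miRNAs with a position, beside 9.22% of the 1085 tested ones. The interval is transcribed as 1 unit or a few, so its miRNAs are not independent of each other.

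Outside these lists, some of the miRNAs furthest above the other tissues were scarce. miR-3099-3p had 278 as the lowest, 1054 as the median and 1786 as the highest value per M with a smallest log2 fold change of 5.71, and miR-873a-5p had 44.6, 104 and 208 with 5.65. Leaving out the 11 pools gave 7.27 and 6.49. miR-1224-5p had 18.2, 178 and 434 with 5.42. In the miR-344 family, which lies in tandem on chromosome 7, 5 of 6 tested strands were called (beside 17.3% of all miRNAs). Among them miR-344-3p was at 73.7, 143 and 227 with a smallest log2 fold change of 4.21. Of 5 miRNAs from introns of Htr2c, 2 were called (beside 17.3% of all miRNAs), miR-448-3p at 6.57, 8.17 and 10.2 per M and miR-764-5p. miR-1298-5p was more abundant at 56.1, 170 and 343 but was not called, since lung had a median of 116.

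**Figure D4:**
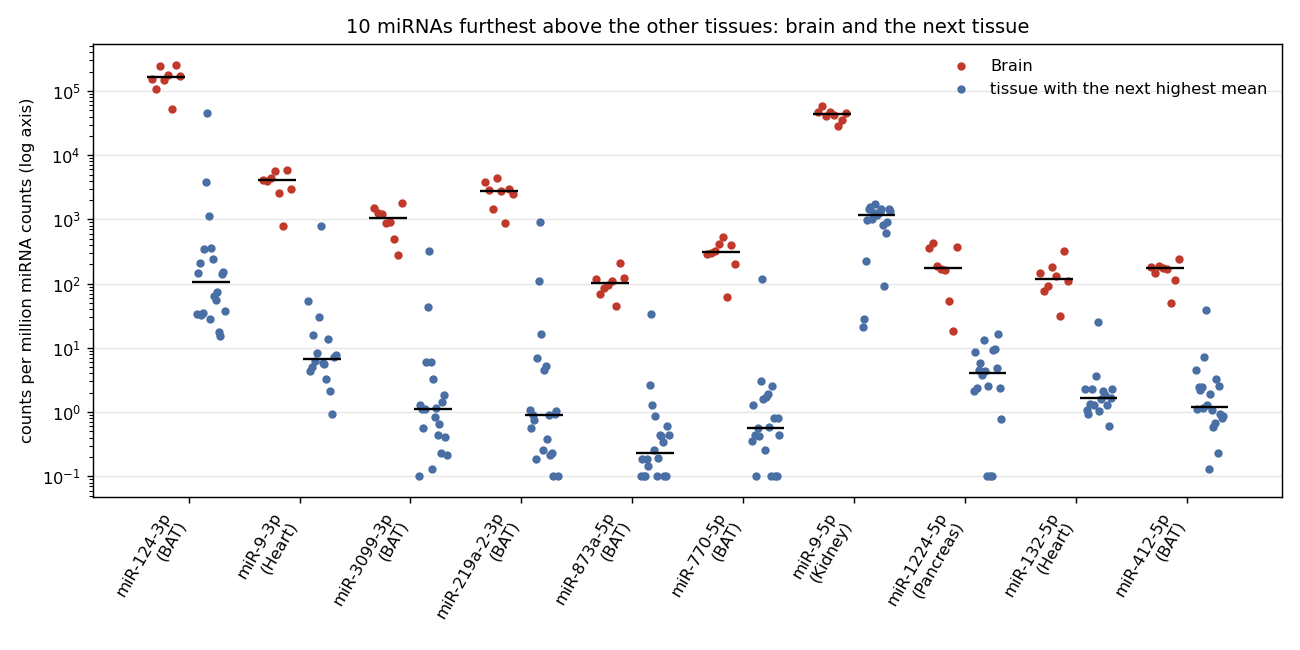
Levels of the 10 miRNAs with the largest smallest-of-12 log2 fold change among those with a mean of at least 100 per M in brain (log axis, counts per M miRNA counts, values under 0.1 drawn at 0.1), for each brain library and each library of the tissue with the next highest mean. For each of the 10, the median of brain lies above every library of the other tissue. The brain median is highest for miR-124-3p, at 162500, and lowest for miR-873a-5p.

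Both endothelial strands and all 5 smooth muscle and fibroblast strands listed were lower in brain, as were 3 of 4 red blood cell and 1 of 5 white blood cell strands, beside 2.54% of all miRNAs tested. miR-126a-3p, a miRNA of endothelial cells, had 1525 as the lowest, 2830 as the median and 7418 as the highest value per M, beside a median of 50880 in lung, and its largest log2 fold change was −1.49 (adjusted p = 3.24e-05, edgeR). miR-451a, of red blood cells, had 1373, 1779 and 15840 beside a median of 87040 in spleen. miR-143-3p, of smooth muscle, had 2198, 2708 and 21330 beside a median of 67550 in MAT, and miR-199a-3p had 96.9, 143 and 2989 beside a median of 8006 in SCAT (largest log2 fold change −2.46, adjusted p = 3.16e-10, edgeR, and −4.12 without the 11 pools). The called white blood cell strand was miR-223-3p, at a largest log2 fold change of −1.89 and of −2.63 without the 11 pools. Of the Hox locus list 1 of 4 was called, miR-10a-5p at 9.64, 38.3 and 360 beside a median of 7331 in kidney. The highest values of miR-143-3p, miR-199a-3p and miR-10a-5p all came from brain of VGC mouse 5. These calls hold relative to the miRNA total. Scaled to the total of 7 classes, where the median over all miRNAs moved from 0.26 to 0.70, no miRNA was called lower and the value nearest 0 of miR-126a-3p became 0.16.

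No miRNA of the striated muscle, epithelial, liver, exocrine pancreas, gut and kidney or neuroendocrine lists was called in either direction by edgeR. Their summed levels varied widely among the brain libraries. The 7 striated muscle miRNAs summed to 1914 as the lowest, 3861 as the median and 52630 as the highest value per M, the last in VGC mouse 5 and the next at 4355. The liver list summed to 17.2, 49.9 and 300, and the epithelial list to 91.9, 3884 and 16780. The part of RNA from other tissues in the values of VGC mouse 5 was not tested, and the values without the 11 pools leave that library out.

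The most abundant miRNAs of brain were shared with other tissues, apart from miR-124-3p, miR-9-5p and miR-127-3p. let-7c-5p had 33000 as the lowest, 88900 as the median and 126100 as the highest value per M, and let-7a-5p, let-7b-5p and let-7d-5p had medians of 55750, 44600 and 28540. The let-7 family restrains growth in differentiated cells. miR-26a-5p and miR-181a-5p had medians of 67540 and 62570, the latter beside a median of 196500 in thymus, and none of these was called. The 10 most abundant miRNAs took 55.1 to 66.4% of the miRNA counts of a brain library, and 44 to 71 miRNAs made up 90% of them. Brain nevertheless held more different miRNAs than the other tissues. After every library was thinned to 430807 miRNA counts, 437 ± 17.3 miRNAs (SD, n = 8) had at least 5 counts in brain, with a range of 411 to 463. MAT came next with 388 ± 17.8, thymus had 383, and liver had the fewest with 301 ± 29.4. Brain was higher than each of the 12 tissues (exact permutation tests, adjusted p from 1.103e-06 to 1.36e-05), and without the 11 pools it held 436 ± 18.3. Without thinning the number was 763 ± 46.2.

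**Figure D5:**
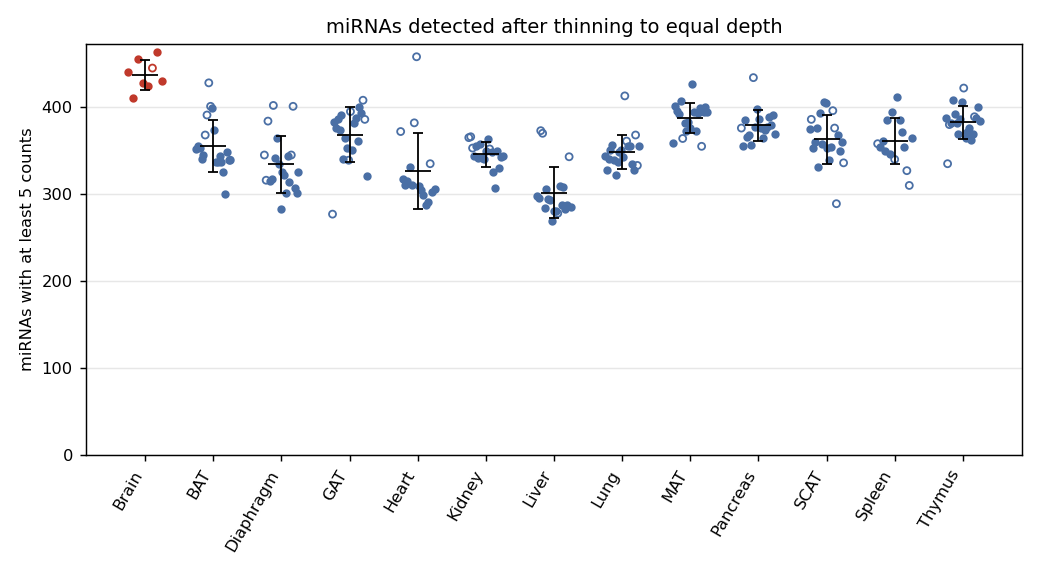
Number of miRNAs with at least 5 counts after thinning each library to 430807 miRNA counts (y axis), for each library of 13 tissues with the mean ± SD and hollow points for libraries of the 11 pools. Brain has the highest mean (437) and liver the lowest (301).

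Among lncRNA transcripts, 63 of 5942 tested (1.06%) were called higher and none lower by edgeR, which gave 81 higher and 319 lower at an unadjusted p under 0.05, and DESeq2 called 77 (1.3%) and 0. The balance at an unadjusted p depends on the scaling, since it was 199 higher and 28 lower with TMM factors and 151 and 24 with DESeq2. Without the 11 pools 66 (1.19%) were higher and 7 (0.126%) lower, and with TMM factors 92 (1.55%) were higher. The 63 transcripts belong to 12 gene symbols, of which Rian accounts for 42 and Mirg for 7, and transcripts of 1 gene share reads. Of the 63, 19 have a position in GENCODE vM21 and 14 of these contain a miRNA hairpin on the same strand, while no Rian transcript called has a position there, so no share is compared with other transcripts. Mir124a-1hg, named as the host gene of Mir124a-1, had 54020 as the lowest, 134100 as the median and 232600 as the highest level per M lncRNA counts with a smallest log2 fold change of 5.86 (adjusted p = 9.01e-09, edgeR) and of 7.57 without the 11 pools. Its count was 100.1 to 100.4% of the count of miR-124-3p in the same libraries. C130071C03Rik, the host of Mir9-2, had 29950, 38180 and 57820 with 5.13 and counted 103 to 117% of miR-9-5p. The count of Mir124a-1hg was thus within 0.37% of that of the mature miRNA in every brain library, whereas that of C130071C03Rik was up to 117% of it. How much of either came from the host transcript was not tested.

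Other hosts were called as well. C78859, around Mir138-2, had 3879, 7935 and 13080 per M lncRNA counts (lowest, median and highest) with a smallest log2 fold change of 4.13, and Gm26871, Gm3294 and A330076H08Rik hold Mir137, Mir129-1 and Mir344-2. Meg3 holds Mir770, and the Mirg transcripts hold 0 to 14 hairpins. The most abundant Rian transcript, host of chromosome 12 snoRNAs, had 12180, 27470 and 36200 with 3.46. With transcripts of 1 gene counted once, 9 of 4068 (0.221%) were called, from Mir124a-1hg at 6.17 and C130071C03Rik at 5.45 to Meg3 at 1.90. Of 38 tested transcripts of 11 listed brain lncRNAs 4 were called (beside 1.06% of all transcripts), 2 of Mir124a-1hg and 2 of C130071C03Rik, both named for or around a miRNA as above. The median of their median log2 fold changes was −0.15 beside −1.02 over all lncRNA transcripts. Of 10 transcripts of Malat1, Neat1 and Xist, nuclear lncRNAs of most cells, none was called by edgeR. Among mice of 3 months alone 35 lncRNA transcripts were called in place of 63.

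tRNA features differed in few places. Of 408 tested, 17 (4.17%) were higher and none was lower by edgeR, with 45 higher and 0 lower at an unadjusted p under 0.05, and DESeq2 called 16 (3.92%) and 0. This balance too depends on the scaling, with 32 higher and 12 lower at an unadjusted p under 0.05 with TMM factors and 25 and 23 with DESeq2. Without the 11 pools 19 (4.66%) were higher. tRNA-Arg-TCT-4-1, known as an isodecoder expressed mainly in the central nervous system, had 0.945 as the lowest, 13.1 as the median and 28.6 as the highest level per M tRNA counts, beside a median of 0.399 in MAT, and a smallest log2 fold change of 4.44 (adjusted p = 4.24e-12, edgeR). It was scarce in absolute terms, as was tRNA-Leu-TAA-4-1 with 1.13, 103 and 402 and a smallest log2 fold change of 4.35. tRNA-Leu-TAA-2-1 was more abundant at 58.3, 1301 and 3454 with 3.40. By anticodon, 8 groups took a larger share of tRNA counts in brain than in each of the 12 tissues by exact permutation tests (5 among mice of 3 months alone). Leu-TAA took 0.185% ± 0.141 beside at most 0.0151% in spleen, Leu-CAA 0.395% beside 0.126% and Gln-CTG 0.709% beside 0.363%, both also in spleen. The tRNA counts were nonetheless led by copies of tRNA-Glu-CTC-1, which each had 28620, 45490 and 66930 per M.

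No rRNA or snRNA feature was called by edgeR or by DESeq2 among 284 and 903 tested. At an unadjusted p under 0.05, edgeR gave 1 higher and 0 lower rRNA features and 1 higher and 2 lower snRNA features, and DESeq2 gave 0 and 0, and 3 and 0. In brain 5S rRNA made up 83.2% ± 4.16 of the rRNA counts, and U1, U6 and U2, the spliceosomal RNAs, made up 45.5%, 35.9% and 15.1% of the snRNA counts. These shares are as deposited, with every copy of a repeated gene counted. The largest group of copies held 462 of 1395 snRNA features and 87 of 356 rRNA features. Of 1387 piRNA features tested 5 (0.36%) were higher and none was lower by edgeR, which gave 19 and 3 at an unadjusted p under 0.05, and DESeq2 called 7 (0.505%) and 0. Without the 11 pools 11 (0.893%) were higher, and with TMM factors 12 (0.865%). piR-300 had 18590 as the lowest, 95980 as the median and 135700 as the highest level per M piRNA counts, beside a median of 2859 in spleen, with a smallest log2 fold change of 4.95 (adjusted p = 4.82e-12, edgeR). piR-1889 had 6835, 64340 and 121100 beside a median of 7940 in heart, with 2.81. The 7 libraries other than VGC mouse 5 had at least 82320 per M for piR-300. PIWI proteins act mainly in the germ line, and no test here says whether these features are piRNAs or fragments of other RNAs.

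Between HGC and VGC brain no difference in the 7 class shares passed the test (exact permutation tests of 4 against 4, smallest possible p = 0.0286, adjusted p = 0.971 for every class). The snoRNA share was 52.5% in HGC and 45.5% ± 19.0 in VGC, each higher than in 11 of the 12 tissues of its own arm. In ground controls of the other protocol (TERM), 9 brain libraries, 6 of them from mice of 3 months and the others of 8 months, held 37.0% ± 8.65 snoRNA counts, again above 11 tissues. The tRNA share was 29.5% ± 8.63 in TERM and 9.75% in LAR (exact permutation test, p = 0.003, adjusted p = 0.021), and the other 6 classes had adjusted p of at least 0.172. The protocols also differ in the ages of the mice and in how the tissue was kept, and the part of either was not tested.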

How the data were processed

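The authors sequenced size-selected small RNA libraries (MGIEasy small RNA kit) and mapped the reads to GRCm39 with miRMaster. They deposited raw counts per feature for 7 classes, without normalization. The deposited miRNA values are estimated counts, of which 0.784% carry a fraction, and these were rounded for count tests. Values per tissue were taken from the columns that name a ground library, and 229 flight columns per table were not used. Pools were taken from the study's sample list. Members, lists and the 11 pools were chosen with earlier results of these data known.

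Each class was fitted in 1 model over 13 tissues with edgeR 4.0.16 (limma 3.58.1, R 4.3.3, the data.table package, version 1.17.8), with the class total as library size. A feature was tested when it had at least 5 counts in at least 10% of the libraries of any tissue and arm. The largest of 12 one-sided p was adjusted by Benjamini and Hochberg over the class. DESeq2 1.42.0, TMM factors, the total of 7 classes, a rank-sum test on log2 values with 1 added, mice of 3 months, each arm, TERM, a stricter filter, plate and the mouse as a block were alternatives. Shares were compared by exact two-sided permutation tests of the mean (Python 3.11.15, numpy 2.4.6, pandas 2.3.3, scipy 1.17.1, plots with matplotlib 3.10.9). The fits were tested on simulated data.

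The labels tie libraries of 1 arm and number to the same mouse. The deviations of brain and another tissue of that mouse from their group means correlated with a median r of −0.03 over 72 pairs, 22 of them over 0.1.

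Sequences and positions came from GENCODE vM21 (GRCm38), matched by transcript version for 1506 of 1545 snoRNA features, and from RefSeq. The authors' build is GRCm39, so the positions are not theirs.

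Chosen for description were all members of the lists, taken by list. For each class the called features with the largest of the smallest log2 fold changes at a mean of at least 100 per M of the class were chosen as well, 10 for miRNAs and snoRNAs and 5 otherwise. The same holds for the 5 lowest, and for the 10 most abundant miRNAs and 5 most abundant features of the other classes. Not every one of them is named in the text or given with values.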

Additional observations from a re-analysis of the deposited data

Results flagged for a closer look

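A value was listed here when the highest or lowest of the 8 brain libraries stood apart from the other 7 by more than Dixon's critical value of 0.526 of the whole range. Of 69 values checked, 24 did. Brain of VGC mouse 5 was the library that stood apart in 18 of the 24. Dixon's rate of 1 in 20 holds for independent, normally distributed values. Since many of these values are tied to each other, the count is not read against that rate.

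In that library the tRNA share was 40.67% (next 10.2%) and the rRNA share 12.72% (next 6.52%). Its summed miRNA levels per M miRNA counts were 52630 for the striated muscle list (next 4355), 28100 for smooth muscle and fibroblast (next 6928), 16000 for red blood cells (next 7785) and 4518 for the neuroendocrine list (next 241). They were 1561 for gut, kidney and liver (next 459.6), 1008 for the Hox locus (next 232.9) and 499.9 for exocrine pancreas (next 61.1). Single miRNAs followed, with miR-199a-3p at 2989 and miR-199b-3p at 2986 (next 266.6 for both), miR-10a-5p at 360.3 (next 86.9) and miR-144-3p at 109.3 (next 54.3). Among snoRNAs, per M snoRNA counts, Gm22879 was at 1412 (next 332.5), Snord15a at 855.6 (next 153.8) and Gm23711 at 110.2 (next 38.4), while Gm24495 was the lowest at 193 (next 308.4). piR-300 was the lowest at 18590 per M piRNA counts (next 82320).

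In brain of HGC mouse 13, 4 scarce tRNA features were highest per M tRNA counts, with tRNA-Ser-CGA-3-1 at 453.7 (next 169.9), tRNA-Leu-TAA-3-1 at 444.5 (next 165.6), tRNA-Sup-TTA-1-1 at 428.6 (next 155.7) and tRNA-Leu-TAA-4-1 at 402.4 (next 143.1). Brain of HGC mouse 1 had the highest snRNA share at 19.44% (next 10.3%), and brain of HGC mouse 17 the highest sum of activity-dependent miRNAs at 9696 per M (next 3715).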

How the results depend on the processing

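Each alternative value was a number of called features, of tissues or of groups. Of 600 such values, 530 lay within 1.5 times of the main value. Direction was not part of that check. Called features are given first. For miRNAs, 33 were lower, and 64 were with DESeq2, 7 in VGC mice, 53 in TERM, 0 scaled to the total of 7 classes, 55 with TMM factors without the 11 pools, 21 by rank-sum test and 25 to 67 when 1 brain library was left out. For tRNAs, 17 were higher, and 16 to 27 were when 1 library was left out. For snoRNAs, 226 were higher and 25 were with copies once, and 399 were lower but 44 with TMM factors, 4 with DESeq2, 1 scaled to the total of 7 classes, 0 with copies once, 16 with TMM factors without the 11 pools and 346 to 465 when 1 library was left out. For piRNAs, 5 were higher, and 11 were without the 11 pools, 12 with TMM factors, 17 with both and 4 to 8 when 1 library was left out. For lncRNAs, 63 were higher, and 35 were among mice of 3 months, 9 with copies once and 59 to 62 when 1 library was left out. None was lower, but 7 were without the 11 pools, 7 when 5 counts were asked for in 8 libraries, 1 with the mouse as a replicate block, 2 with plate as a term and 0 to 35 when 1 library was left out. Without brain of VGC mouse 5 there were 67 miRNAs, 465 snoRNAs and 35 lncRNAs lower, 27 tRNAs and 8 piRNAs higher, and the tRNA share lay below 8 tissues. The mouse as a replicate block gave 217 higher and 28 lower miRNAs and 221 and 356 snoRNAs, and beyond the lncRNA mentioned it moved no count by over 1.5 times.

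Tissues with a lower or higher share follow. The miRNA share was above 4 tissues, but 1 without tRNA and rRNA and 10 with copies once, also without the 11 pools. It was below 2, but 1 among mice of 3 months, in HGC mice, in TERM and by medians, 0 in VGC mice and with copies once, also without the 11 pools, 5 without tRNA and rRNA and 0 to 2 when 1 library was left out. The tRNA share was above 0 (1 in TERM) and below 4, but 9 without the 11 pools, 7 by medians and 4 to 8 when 1 library was left out. The rRNA share was below 10 (6 with copies once). The snRNA share was above 2, but 4 without the 11 pools, 0 in VGC mice and without tRNA and rRNA, 4 with copies once, 6 with copies once without the pools and 1 to 3 when 1 library was left out. It was below 4, but 0 in HGC mice, 10 without tRNA and rRNA, 1 with copies once and 0 with copies once without the pools. The snoRNA share was above 12 and below 0, but with copies once above 1 and below 4, and without the pools above 1 and below 6. The piRNA share was above 0 (1 with copies once without the pools) and below 10, but 5 with copies once and 6 without the pools. The lncRNA share was above 7, but 4 in HGC mice and 0 without tRNA and rRNA, and below 0, but 1 in TERM and 4 without tRNA and rRNA. Of tRNA anticodon groups 8 were higher, 5 among mice of 3 months and 6 to 9 when 1 library was left out. Causes were not tested, except that copies once and fewer libraries change what is counted. TMM factors moved the median over all features from −1.02 to −0.10 for lncRNAs, from 0.69 to 0.06 for tRNAs and from 0.26 to 0.40 for miRNAs. Copies once and TMM factors without the pools were chosen after the data were seen. Brain rests on 8 libraries of mice of 3 months, and scarce features such as tRNA-Arg-TCT-4-1 rest on few counts.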

Other observations

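Brain libraries fell apart in the epithelial miRNAs, a list of the miR-200 family and miR-205-5p that no call above concerns. The summed level per M miRNA counts was 8286 in HGC mouse 1, 10060 in HGC mouse 13, 7267 in VGC mouse 1 and 16780 in VGC mouse 5, but 199.5 in HGC mouse 5, 91.9 in HGC mouse 17, 501 in VGC mouse 13 and 442 in VGC mouse 17. Both arms thus held 2 libraries of each kind. miR-429-3p had 2429, 2584, 3834 and 4616 in the first 4 libraries and 34.5 to 183 in the other 4, and miR-200b-3p had 1149 to 2981 in the first and 21.2 to 132 in the other. miR-205-5p, a miRNA of stratified epithelia outside the miR-200 family, did not split this way, with 1785 in HGC mouse 1, 4366 in VGC mouse 5 and at most 35.8 in the other 6. The study's methods name whole hemi-brains, and the cause was not tested.

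miR-132-3p and miR-132-5p come from the same hairpin, yet their levels went different ways between brain libraries. miR-132-3p was highest in HGC mouse 17 at 8152 and lowest in VGC mouse 17 at 65.8 per M miRNA counts, whereas miR-132-5p had 130 and 178 in the same libraries. Its own range over the 8 libraries was 31.4 to 327.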
